A study of Sus scrofa with 15 samples.

Results

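The data describe the genes that cut messenger RNA at its 3′ end, add the poly(A) tail and bind it, measured by RNAseq in pig oocytes before and after *in vitro* maturation (IVM). The members are 40 genes fixed as a list of symbols, of which 37 had a row by symbol among the 22516 genes of the count table. *CPSF1*, *FIP1L1* and *TUT7* had no row by symbol and were not analysed here. Of the 37 genes, 20 were listed as nuclear factors and 17 as factors that act on messages in the cytoplasm. After the filter on low counts 35 members were tested (19 nuclear and 16 cytoplasmic) among 13215 genes. *CSTF2T* and *MUSASHI1* (listed as *MSI1*) did not pass that filter, with a mean of 0.2 and 0.433 TPM (a level per transcript length, scaled to the same sum in every library) in GV oocytes and of 0.0086 and 0.192 TPM after IVM.

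The series holds 15 libraries of porcine oocytes, 5 per group, from sow ovaries, and no group carries a genetic change. Germinal vesicle (GV) oocytes were stripped of cumulus cells without culture, whereas MII (metaphase II) and ‘damaged’ oocytes came from complexes matured for 44 h. That culture medium held PMSG, HCG, EGF, insulin, follicular fluid, cysteamine and antibiotics, so that MIX and GV oocytes differ by this exposure and by time as well as by stage, which cannot be told apart. After that culture the oocytes with a first polar body formed the MII group and those without formed the ‘damaged’ group, a gate that does not say at which step the latter stopped. Each library is a pool of 15 oocytes from 1 of 5 independent collections. MII and ‘damaged’ libraries were also joined as MIX, and the GV library with the lowest total, GV 3, was left out. That leaves 4 GV against 10 MIX libraries.

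In the nucleus, CPSF and CstF bind the poly(A) signal and the downstream element of the pre-mRNA, CFI and CFII assist them, CPSF3 cuts and poly(A) polymerase extends the new end, which PABPN1 coats. A fully grown oocyte transcribes little and stores many messages with short tails. During meiotic maturation CPEB1, bound to U-rich elements near the end of such messages, recruits cytoplasmic CPSF and a non-canonical poly(A) polymerase, and the lengthened tails are bound by cytoplasmic poly(A) binding proteins that promote translation. PAIP1 and PAIP2 bind those proteins, the former as an activator and the latter as an inhibitor of translation. The cDNA was primed on poly(A), so that a change in the amount of a message and a change in the length of its tail cannot be told apart in any value given here.

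Before the results, 3 features of the libraries have to be given. Totals lay between 11961151 and 23568633 estimated counts in the libraries tested and at 6400412 in GV 3. The names of 7 of the 15 columns in the gene table disagreed with the totals of the transcript files, and the groups used are those of the transcript files. Which of the names are right is not known, and values for the libraries whose names agree are given beside the main ones. Libraries were set to a common scale by TMM (trimmed mean of M values), with factors of 1.35 to 1.73 in GV oocytes and 0.794 to 0.922 in MIX oocytes, and the 10 most abundant genes held 7.18 to 7.47% of counts in those GV libraries but 12.7 to 14.2% in MIX. Over all genes tested, MIX against GV had a median log2 change of −0.16 with TMM and of −1.06 on library sizes alone. All fold changes below are with TMM unless stated, and each can be read against that median.

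The tissue labels were checked against marker genes. All 14 oocyte markers with a row had a count in all 15 libraries. Their summed level was 19963 to 25648 TPM in the 4 GV libraries and 7849 to 11809 TPM in MIX. Of 22 cumulus and granulosa markers, 15 had a row, and their sum was 146 to 187 TPM in GV and 306 to 362 TPM in MIX. Nearly all of that sum was *VCAN* (123 to 166 TPM in GV, 279 to 338 in MIX) and *FST*. *CYP11A1* was at 0 to 0.391 TPM and *FSHR* at 0 to 0.791 TPM in these 14 libraries, and *HAS2* did not exceed 0.213 TPM. Others reached more, namely *VIM* up to 2.91, *TNFAIP6* 2.62, *CD44* 1.51, *GJA1* 1.24 and *STAR* 1.22 TPM. The part of other cells in the results below was not tested. In pooled oocytes, fewer oocytes with a message and less message per oocyte cannot be told apart.

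Between MIX and GV oocytes, 16 of the 35 members rose and 5 fell (limma-voom, Benjamini-Hochberg FDR under 0.01), whereas over all genes tested 30.4% rose and 37.2% fell. The median log2 fold change of the members was 0.48 against −0.16 for all genes, a distance of 0.64. On library sizes 5 members rose and 17 fell, with a median of −0.42 (12.1% of all genes rose and 60.5% fell on that scale). The 5 were *CPSF2*, *NUDT21*, *WDR33*, *CSTF2* and *TENT2*, so that the other 11 rises were not called on library sizes. The 17 were the 5 members that fell with TMM together with *CPSF4*, *CPSF6*, *CSTF3*, *PCF11*, *PAPOLG*, *TENT4A*, *PABPC1L*, *PABPC4*, *PABPN1*, *CPEB1*, *PAIP1* and *MSI2*. With TMM 26 of the 35 members lay above the median gene. The change to library sizes shifts all genes by nearly the same amount, so that this count and the distance of 0.64 are kept by construction. Genes were called differentially expressed (DEGs) by a stricter threshold (FDR under 0.01 and a log2 fold change beyond 2 in either direction). By it 1 member was up (*WDR33*) and 1 was down (*PAIP2*), against 4.28% and 16.7% of all genes. In 12 members all MIX libraries lay above all GV libraries and in 3 all lay below (24.3% and 29.4% of all genes). The names agreed in both kinds of file for 8 libraries, namely GV 4 and 5, MII 3, 4 and 5 and ‘damaged’ 3, 4 and 5. In that smaller set, an effect of fewer libraries and an effect of the labels cannot be told apart. There 37 members passed the filter, of which 13 rose and 4 fell (24.3% and 31.1% of all genes). The 4 were *PAIP2*, *SYMPK*, *PABPC1L* and *CSTF2T* (−3.25, FDR 0.000567), the last of which was not tested in the main comparison. There *CPSF3* (−0.54, FDR 0.0128), *CSTF1*, *TENT5A*, *TUT4*, *PABPN1L* and *CPEB3* lost their call and *PABPC1L* gained one (−0.84, FDR 0.00951). The plot of log2 fold changes shows these members by compartment and on both scales.

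**Figure D1:**
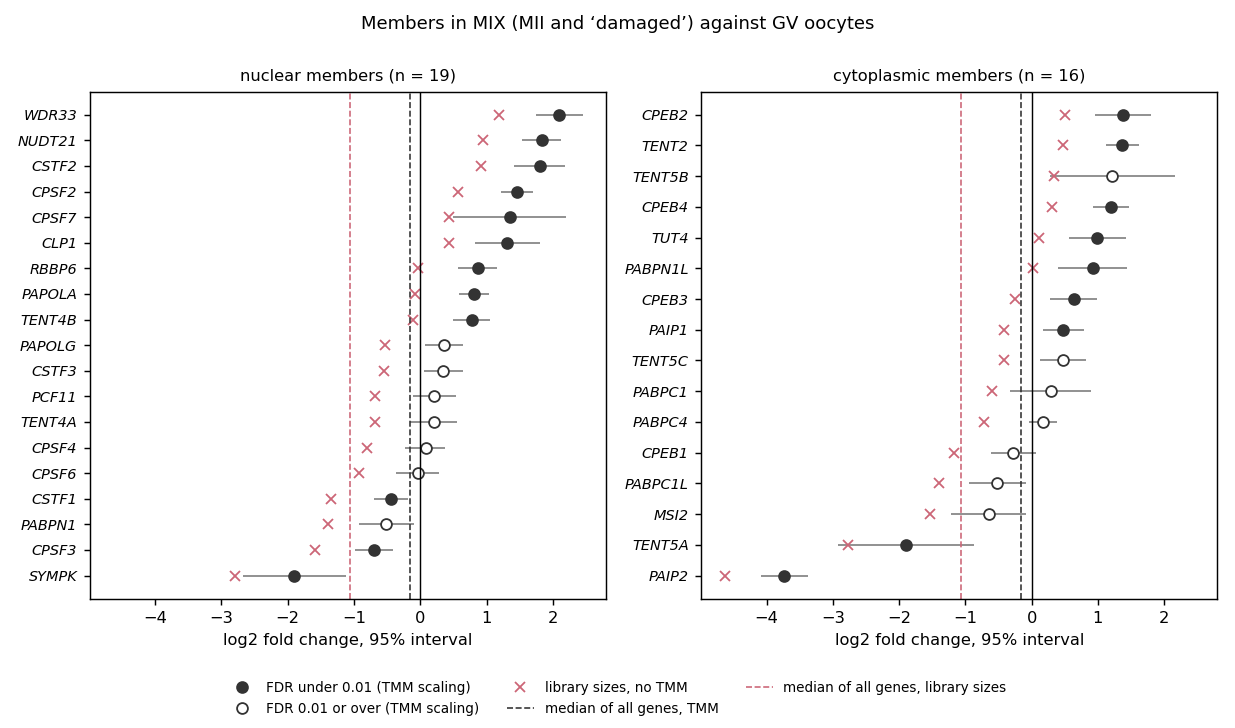
Log2 fold change of the 35 members tested, MIX (10 libraries) against GV (4 libraries), with nuclear members on the left and cytoplasmic members on the right. Circles and bars give the value with TMM factors and its 95% interval (filled where FDR is under 0.01), crosses give the value on library sizes, and dashed lines mark the median of all genes at −0.16 and −1.06. *PAIP2* lies farthest to the left and *WDR33* farthest to the right on both scales.

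The nuclear and the cytoplasmic members did not part into a rising and a falling set. All CPSF subunits were counted as nuclear, although CPSF also acts in the cytoplasm during maturation, so the split is not strict. Of the nuclear members 9 rose, 3 fell and 7 were not called, with a median of 0.36 and a range from −1.90 to 2.09. Of the cytoplasmic members 7 rose, 2 fell and 7 were not called, with a median of 0.48 and a range from −3.73 to 1.38. Over all genes tested 30.4% rose and 37.2% fell, which is also the background for the counts per family below. On library sizes both medians turned negative (−0.53 and −0.41). Their distances from the median of all genes (0.53 and 0.65 there) are nearly the same with TMM by construction, since all genes shift alike. The summed level, in TPM and thus without a TMM factor, differed more between the compartments than the medians did. A lower sum in MIX has to be read beside the median of all genes on library sizes, likewise without that factor (−1.06). Nuclear members summed to 726 to 883 TPM in GV and 675 to 783 TPM in MIX, whereas cytoplasmic members summed to 1476 to 1607 TPM in GV and 791 to 1022 TPM in MIX. The nuclear share of the sum within a library, which no scaling factor can change, was thus 31.4 to 35.5% in GV and 41.4 to 49.1% in MIX, without overlap. Without *PAIP1*, the most abundant member, that share was 50.4 to 53.6% in GV and 62.1 to 72.2% in MIX. Without *PAIP1*, *PAIP2* and *NUDT21* it was 52.1 to 61.1% in GV and 50.8 to 59.3% in MIX, which overlap. Leaving out *PAIP1* alone thus did not close the gap. Of the other 2, *PAIP2* fell and *NUDT21* rose, so that leaving both out narrows the gap by construction. The log2 difference between the median nuclear and the median cytoplasmic level also overlapped, with 0.57 to 0.93 in GV and 0.48 to 1.30 in MIX.

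The member that changed most was *PAIP2* (ENSSSCG00000026606, chromosome 2, 141237417-141260207 in Sscrofa11.1), which encodes the inhibitor that displaces cytoplasmic poly(A) binding protein. Its level was 247, 134, 174 and 114 TMM-scaled CPM (counts scaled by library total) in GV 1, 2, 4 and 5. It was 14.7, 9.16, 14.3, 12.8 and 11.5 CPM in MII 1 to 5 and 12.8, 13.4, 10.04, 11.6 and 11.4 CPM in ‘damaged’ 1 to 5. All 10 matured libraries thus lay far below the lowest GV library. The log2 fold change was −3.73 ± 0.17 (SE, FDR 1.12e-13). On library sizes it was −4.63, and it lay between −3.89 and −3.50 when each library was left out in turn. Its partner *PAIP1*, the activator, stood at 810 ± 99.5 TPM in GV (SD, n = 4) and 557 ± 60.9 TPM in MIX (n = 10), the highest level of any member in both. The log2 fold change of *PAIP1* was 0.48 ± 0.149 (FDR 0.00627), but −0.42 (FDR 0.00221) on library sizes, so its direction depends on the scale. The call on *PAIP1* was also lost when any 1 of GV 2, GV 4, GV 5, MII 1, MII 2, MII 4 or ‘damaged’ 1 was left out (log2 fold change 0.36 to 0.48, FDR 0.0103 to 0.0395). Within the pair, *PAIP2* made up 21.6 to 24.8% of the summed TPM in GV oocytes and 1.03 to 2.39% in MIX.

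**Figure D2:**
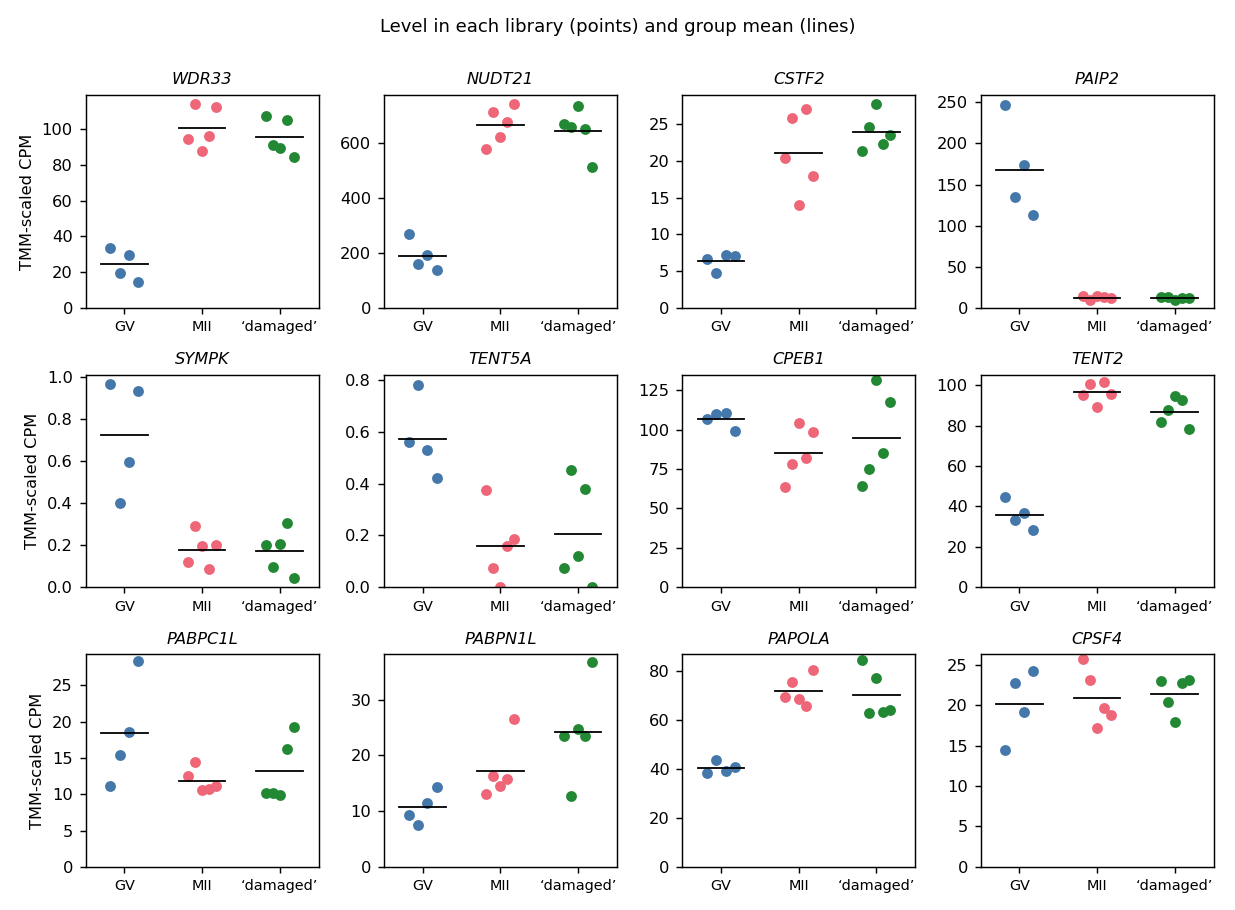
TMM-scaled CPM of 12 members in each GV (n = 4), MII (n = 5) and ‘damaged’ (n = 5) library, with points for libraries, lines for group means and a linear axis from 0 in each panel. *WDR33*, *NUDT21*, *CSTF2*, *TENT2* and *PAPOLA* are higher in all matured libraries than in all GV libraries, *PAIP2* and *SYMPK* are lower, and *CPEB1*, *PABPC1L*, *PABPN1L*, *CPSF4* and *TENT5A* overlap.

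Among the CPSF subunits tested, 2 rose, 2 fell and 1 was not called. *WDR33* (ENSSSCG00000015861, chromosome 15, 59519832-59639050), the subunit that contacts the poly(A) signal, stood at 33.7, 19.7, 29.7 and 14.3 CPM in GV 1, 2, 4 and 5. It stood at 94.6, 114, 87.6, 96.4 and 112 CPM in the MII libraries and at 108, 91.5, 89.7, 105 and 84.8 CPM in the ‘damaged’ libraries. Every matured library was above every GV library, by 2.09 ± 0.17 on the log2 scale (FDR 5.15e-10), or by 1.19 on library sizes. An annotated transcript of only 844 nt carried 71.9 to 93.7% of the *WDR33* TPM in GV and 94.1 to 96.3% in MIX. The other transcript compared, of 4497 nt, held a mean of 14.1% in GV and 4.69% in MIX. The gene as a whole had a mean of 48.8 TPM in GV and 100 TPM in MIX. The rise in *WDR33* TPM thus lay in the 844-nt transcript, and the mean level of the 4497-nt transcript did not rise. The log2 fold change was 1.66 without scaling by transcript length, 1.77 under a 10 CPM filter and 1.86 without GV 5, each below the threshold for a DEG. *CPSF2*, a scaffold subunit related to the endonuclease, rose by 1.46 and also lay higher in all MIX than in all GV libraries.

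The endonuclease subunit *CPSF3* and the scaffold *SYMPK* were the CPSF members that fell. *CPSF3* changed by −0.70 ± 0.137 with TMM (FDR 0.000112) and by −1.59 on library sizes (FDR 2.94e-09). Its level in TPM, to which no TMM factor is applied, was 32.7 ± 4.36 in GV and 10.1 ± 2.08 in MIX. *SYMPK* (ENSSSCG00000003093, chromosome 6, 52135580-52180382) was near the limit of detection, with 0.963, 0.402, 0.595 and 0.93 CPM in GV 1, 2, 4 and 5. It had 0.122, 0.291, 0.198, 0.0847 and 0.202 CPM in MII and 0.202, 0.0974, 0.205, 0.303 and 0.0459 CPM in ‘damaged’ libraries. Its log2 fold change of −1.90 ± 0.373 (FDR 0.000107) rests on 7.82 to 22.4 counts per GV library and 0.681 to 4.71 per MIX library. *CPSF4* (ENSSSCG00000026896, chromosome 3, 6374346-6388662), a zinc finger subunit that also belongs to the cytoplasmic complex, stood at 14.5, 22.8, 19.2 and 24.3 CPM in GV 1, 2, 4 and 5. In MII it stood at 25.8, 23.1, 17.2, 19.7 and 18.9 CPM and in ‘damaged’ at 23.1, 20.4, 17.9, 22.8 and 23.2 CPM, so that the groups overlapped. Its log2 fold change was 0.08 (95% interval −0.23 to 0.38, FDR 0.633) and turned to −0.81 (FDR 0.000233) on library sizes and to −0.05 without GV 1.

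These shifts changed the make-up of CPSF messages within each library. *WDR33* made up 21.8 to 40.1% of the summed CPSF TPM in GV and 51.9 to 63.0% in MIX. Most of that *WDR33* TPM belonged to its 844-nt transcript, in which the rise lay. *CPSF3* went from 20.1 to 24.1% in GV down to 4.09 to 6.95% in MIX, and *CPSF4* from 12.7 to 27.3% down to 7.48 to 10.8%. None of these 3 shares overlapped between GV and MIX libraries, and CPSF1 and FIP1L1 are outside the sum. The share of *CPSF2* did overlap, with 22.9 to 26.3% in GV and 22.9 to 32% in MIX. How often shares part in other gene families was not computed.

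CFI binds UGUA elements upstream of the cleavage site and steers the choice among poly(A) sites. Its small subunit *NUDT21* (ENSSSCG00000034521, chromosome 6, 29339893-29359596) stood at 267, 160, 192 and 137 CPM in GV 1, 2, 4 and 5. It reached 580, 715, 621, 676 and 744 CPM in MII and 670, 660, 736, 650 and 513 CPM in ‘damaged’ libraries. The lowest matured library was thus well above the highest GV library, by 1.84 ± 0.141 on the log2 scale (FDR 2.07e-10), or by 0.94 on library sizes. The large subunits did not move alike. *CPSF6* had −0.04 (FDR 0.813, −0.93 with FDR 9.39e-05 on library sizes), and *CPSF7*, at only 1.47 ± 0.701 TPM in GV, rose by 1.35 (FDR 0.00544). That call on *CPSF7* was lost on library sizes (0.44, FDR 0.325), without GV 4 (1.34, FDR 0.0153) and without GV 5 (0.96, FDR 0.04). *NUDT21* made up 76.0 to 90.9% of the summed TPM of CFI in GV and 93.1 to 95.7% in MIX. Much of the rest of that sum is uncertain. A transcript of only 283 nt carried 57.3 to 72.8% of the *CPSF6* TPM in GV, on 10 to 24.7 estimated counts per library, and a mean of 62.5% in MIX.

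CstF binds the downstream element. Its RNA-binding subunit *CSTF2* (ENSSSCG00000012486, chromosome X, 82508739-82540861) stood at 6.64, 4.76, 7.19 and 7.06 CPM in GV 1, 2, 4 and 5. It stood at 20.4, 25.9, 13.98, 27.1 and 17.96 CPM in MII and 21.4, 24.6, 27.8, 22.3 and 23.5 CPM in ‘damaged’ libraries. All matured libraries were higher, by 1.80 ± 0.187 on the log2 scale (FDR 2.2e-08), or by 0.91 on library sizes. The other subunits tested did not follow. *CSTF1* fell by 0.44 on the log2 scale (FDR 0.00276), a call that was lost without GV 1 (−0.30, FDR 0.0235) and without GV 4 (−0.40, FDR 0.0158). *CSTF3*, the scaffold, had 0.35 (FDR 0.0337), which passed the threshold without GV 1 (0.48, FDR 0.00648) and turned to −0.55 on library sizes. *CSTF1* remained the most abundant CstF message, with 78.9 to 85.3% of the summed TPM in GV and 62.1 to 75.8% in MIX, while *CSTF2* went from 1.32 to 2.09% to 3.66 to 7.99%. Of CFII, *CLP1* rose by 1.31 (FDR 3.26e-05, 0.43 with FDR 0.114 on library sizes), and *PCF11* had 0.21 (FDR 0.22, −0.68 on library sizes). *RBBP6*, a ubiquitin ligase that activates cleavage, had 0.87 (FDR 1.2e-05), but −0.03 on library sizes.

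Of the nuclear poly(A) polymerases, *PAPOLA* (ENSSSCG00000002505, chromosome 7, 117676083-117740348), the canonical enzyme, stood at 38.3, 43.8, 39.2 and 40.9 CPM in GV 1, 2, 4 and 5. It stood at 69.6, 75.7, 68.8, 65.8 and 80.4 CPM in MII and 84.7, 62.8, 77.4, 63.4 and 64.4 CPM in ‘damaged’ libraries. The groups did not overlap, and the log2 fold change was 0.81 ± 0.111 (FDR 1.29e-06), which on library sizes was −0.08 (FDR 0.525). *TENT4B*, a polymerase of the nuclear surveillance machinery, had 0.78 (FDR 1.95e-05, −0.11 on library sizes). *PAPOLG* had 0.36 (FDR 0.0239) and *TENT4A* 0.20 (FDR 0.294), and both were negative on library sizes (−0.53 and −0.69). The value of *TENT4A* also turned to −0.03 without GV 1. *PABPN1*, which coats the nascent tail, had −0.51 (FDR 0.026), and passed the threshold without GV 1 (−0.72, FDR 0.00137) and on library sizes (−1.39, FDR 1.81e-05).

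In the cytoplasm, *TENT2* (ENSSSCG00000014114, chromosome 2, 88328250-88388242), known in frog oocytes as the polymerase GLD2, stood at 44.8, 33.4, 36.9 and 28.5 CPM in GV 1, 2, 4 and 5. It stood at 95.2, 100, 89.3, 102 and 95.9 CPM in MII and 81.7, 87.6, 94.6, 92.6 and 78.6 CPM in ‘damaged’ libraries. All matured libraries were higher, by 1.37 ± 0.121 on the log2 scale (FDR 1.74e-09), or by 0.47 (FDR 0.000222) on library sizes. *TENT5C* was the most abundant message of these polymerases, with 75.1 to 88.4% of their summed TPM in GV and 66.9 to 78.7% in MIX. Its log2 fold change of 0.48 (FDR 0.0135) passed the threshold without GV 2, GV 5, MII 3 or MII 5 (0.52 to 0.61, FDR 0.0038 to 0.00768) and was −0.41 on library sizes. *TENT5B* had 1.22 (FDR 0.0199), and 1.35 (FDR 0.00902) without ‘damaged’ 2.

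*TENT5A* (ENSSSCG00000004464, chromosome 1, 84545033-84552138) was almost absent. It had 0.561, 0.78, 0.528 and 0.421 CPM in GV 1, 2, 4 and 5, 0.375, 0.0751, 0, 0.157 and 0.184 CPM in MII and 0.0753, 0.451, 0.12, 0.38 and 0 CPM in ‘damaged’ libraries. The groups overlapped in ‘damaged’ 2, and the log2 fold change of −1.89 ± 0.492 (FDR 0.00167) rests on 10.1 to 15.2 counts per GV library and at most 5.94 per MIX library. *TUT4*, which adds uridines to short tails, rose by 0.99 (FDR 0.000155, 0.11 with FDR 0.635 on library sizes).

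The 4 CPEB genes, whose products bind the cytoplasmic polyadenylation element, fell into 3 that rose and 1 that was not called. *CPEB1* (ENSSSCG00000001808, chromosome 7, 52329054-52382408), the member that works in resumption of meiosis, stood at 107, 110, 110 and 99.0 CPM in GV 1, 2, 4 and 5. It stood at 63.3, 78.0, 104, 81.8 and 98.2 CPM in MII and 64.5, 75.1, 131, 84.8 and 118 CPM in ‘damaged’ libraries. The matured libraries spread around the narrow GV range, and the log2 fold change was −0.28 ± 0.16 (FDR 0.123). On library sizes it was −1.17 (FDR 3.64e-06), close to the median of all genes. *CPEB2* rose by 1.38 (FDR 2.5e-06), *CPEB4* by 1.20 (FDR 3.78e-08) and *CPEB3* by 0.64 (FDR 0.00197), and on library sizes these were 0.50 (FDR 0.0489), 0.31 (FDR 0.0552) and −0.25 (FDR 0.183), none of them called. Within the family, *CPEB1* made up 70.0 to 78.8% of the summed TPM in GV and 39.8 to 63.5% in MIX. *CPEB4*, which acts in the second part of meiosis in frog oocytes, went from 10.4 to 14.2% to 19.1 to 33.6%, and *CPEB2* from 3.65 to 8.08% to 8.86 to 16.1%. In each of these 3 shares GV and MIX libraries were apart, whereas that of *CPEB3* overlapped (6.95 to 8.02% in GV, 6.14 to 13.7% in MIX). No background of other families was computed for such shares.

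**Figure D3:**
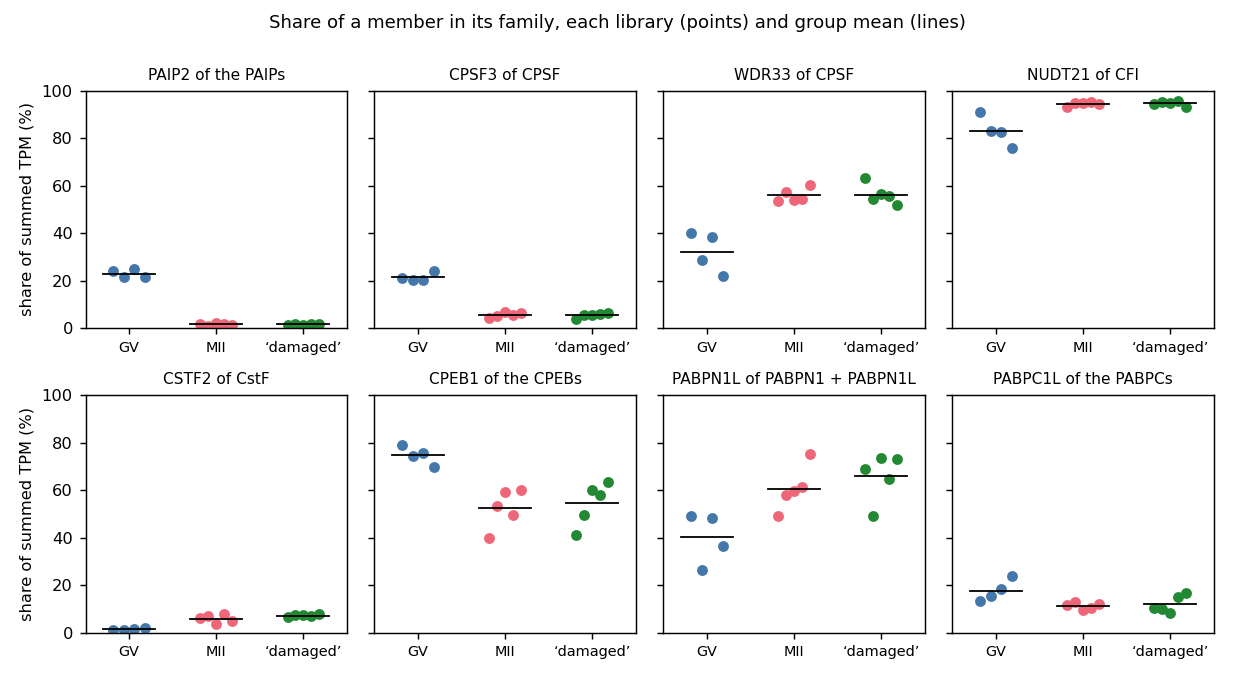
Share of 1 member in the summed TPM of its family, in percent, for each GV (n = 4), MII (n = 5) and ‘damaged’ (n = 5) library, with points for libraries and lines for group means. *PAIP2*, *CPSF3* and *CPEB1* hold a smaller share in every matured library than in any GV library, *WDR33*, *NUDT21* and *CSTF2* a larger one, and *PABPC1L*, shown as a share of the 3 PABPC genes, overlaps.

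Of the cytoplasmic poly(A) binding proteins, 1 of 4 was called. *PABPN1L* (ENSSSCG00000036367, chromosome 6, 854605-861969), an oocyte form of PABPN1 that in mouse oocytes works in the cytoplasm, stood at 9.29, 7.54, 11.5 and 14.4 CPM in GV 1, 2, 4 and 5. It stood at 13.1, 16.4, 14.6, 15.7 and 26.5 CPM in MII and 23.4, 12.8, 24.8, 23.4 and 36.7 CPM in ‘damaged’ libraries. Most matured libraries were higher but the groups overlapped, with a log2 fold change of 0.92 ± 0.249 (FDR 0.00237). The call was lost without GV 2 (0.77, FDR 0.016) and on library sizes (0.02, FDR 0.937). Of the pair *PABPN1* and *PABPN1L*, the latter made up 26.6 to 49.0% of the TPM in GV and 49.1 to 75.1% in MIX, 2 ranges that meet almost without a gap.

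*PABPC1L* (ENSSSCG00000007382, chromosome 17, 47321259-47351905), the embryonic poly(A) binding protein required for oocyte maturation in mice, stood at 11.12, 15.4, 18.6 and 28.3 CPM in GV 1, 2, 4 and 5. It stood at 12.5, 14.4, 10.6, 10.8 and 11.12 CPM in MII and 10.2, 10.2, 9.84, 16.3 and 19.2 CPM in ‘damaged’ libraries. The groups overlapped, and the log2 fold change was −0.52 ± 0.208 (FDR 0.0298). It passed the threshold without GV 1 (−0.71, FDR 0.0031) and on library sizes (−1.40, FDR 2.45e-05). Its share was 10.4 to 17.9% in GV and 5.31 to 9.5% in MIX of the 4 cytoplasmic poly(A) binding genes, without overlap, but 13.5 to 23.8% and 8.35 to 16.8% of the 3 PABPC genes alone, with overlap. *PABPC4* was the most abundant of the cytoplasmic forms in all groups, with 105 ± 26.3 TPM in GV and 57.3 ± 6.21 TPM in MIX and did not pass the test (0.17, FDR 0.125, −0.72 on library sizes). *PABPC1*, the main form of somatic cells, had 4.58 ± 1.5 TPM in GV and 2.96 ± 1.59 TPM in MIX. Its log2 fold change was 0.29 (FDR 0.379, −0.60 on library sizes), and its counts are uncertain since near-identical copies may share its reads. Of the Musashi proteins, which bind some maternal messages ahead of CPEB1, *MSI2* was at 0.501 ± 0.182 TPM in GV and 0.154 ± 0.0408 TPM in MIX (log2 fold change −0.65, FDR 0.0342, −1.53 with FDR 5.82e-05 on library sizes).

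The use of annotated transcripts was compared in the 19 members with 2 or more isoforms of at least 5% mean usage, where usage is the share of an isoform in the TPM of its gene. Of 49 isoforms in these members, 20 in 10 members changed between MIX and GV (limma diffSplice, FDR under 0.01 and a difference over 10 percentage points). That share is close to the 37.6% of all isoforms tested, so a change in usage as such does not set these members apart. In *PAPOLA* the 4343-nt transcript, the longest tested, went from 82.6, 90.1, 84.9 and 89.2% in GV 1, 2, 4 and 5 to 12.6 to 22.1% in MIX (FDR 5.18e-12). Its place was taken by 3 shorter transcripts of 2476 to 2767 nt, all of which rose, though for the 2476-nt transcript MII 4 (2.23%) and ‘damaged’ 5 (4.79%) lay below GV 5 (5.99%). Among the 8 libraries whose names agree, the call on that 2476-nt transcript was lost (7.93 points, FDR 0.0602). In *CPSF2* the 5766-nt transcript went from 46.7 to 75.7% in GV to 17.6 to 23.1% in MIX and the 2678-nt transcript rose in turn (FDR 5.4e-12). In *CPEB3* the 4113-nt transcript was listed at 0 in the 4 GV libraries and made up 56.8 to 80.8% in MIX, with 134 to 345 estimated counts per library, whereas the 5610-nt transcript fell (FDR 5.17e-11). For the long transcripts of *PAPOLA*, *CPSF2* and *CPEB3* no MIX library reached the usage of any GV library.

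**Figure D4:**
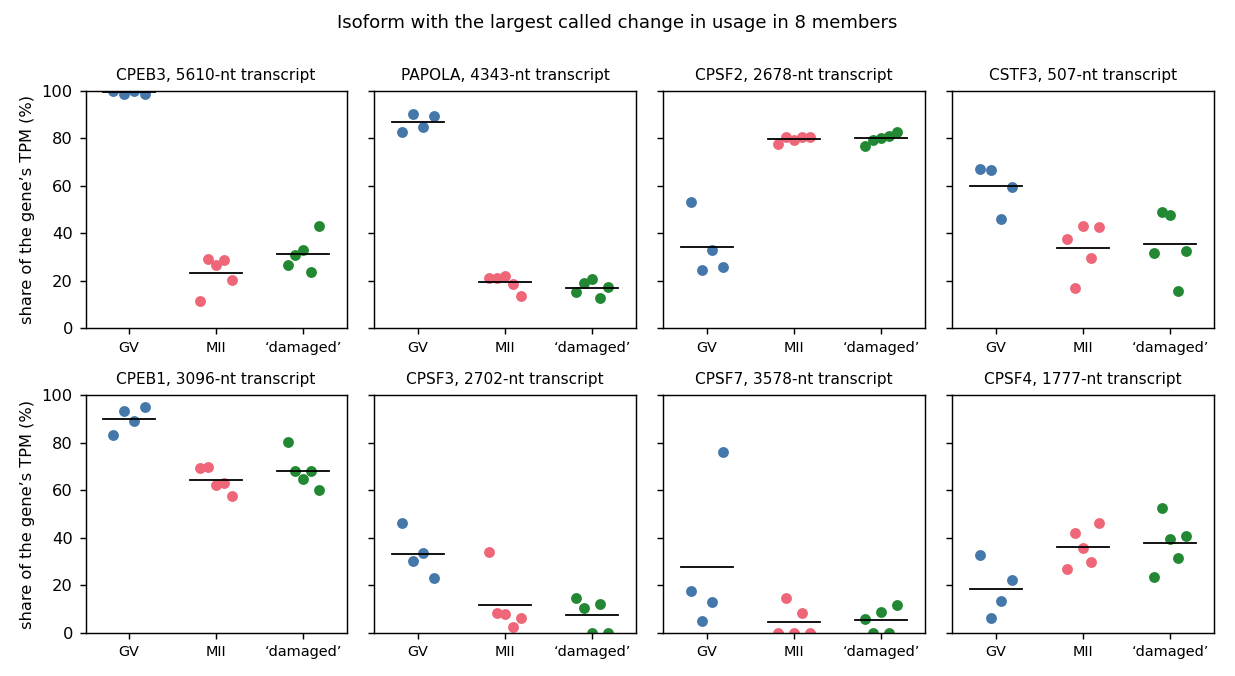
Usage of the isoform with the largest called change in 8 members, as percent of the TPM of its gene, in each GV (n = 4), MII (n = 5) and ‘damaged’ (n = 5) library, with points for libraries and lines for group means. The *PAPOLA* 4343-nt and *CPEB3* 5610-nt transcripts fall from over 80% to under 45%, the *CPSF2* 2678-nt transcript rises, and the GV mean of *CPSF7* is set by a library at 75.9%.

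The other 7 members moved less. The 3096-nt transcript of *CPEB1* went from 83.2 to 95% in GV to 57.7 to 80.5% in MIX (FDR 6.23e-06), and the 4829-nt transcript of *NUDT21* from 26.2 to 42.4% to 20.1 to 26.9% (FDR 0.000469), the latter with overlap. In *CSTF3* the 2346-nt transcript rose from 2.68 to 4.99% to 16.9 to 45.8% (FDR 7.57e-08), while a 507-nt transcript fell. *CPSF3*, *CPSF4* and *PABPC4* also had called isoforms, with differences of 10 to 23.8 percentage points. The smallest of these, for the 4750-nt transcript of *CPSF3*, was at the limit of 10 points, and it was called in 9 of the 19 analyses run. It was lost without any 1 of GV 1, GV 2, GV 5, MII 1, MII 4 or ‘damaged’ 1, 2 or 3 (9.04 to 9.95 points). The call on *CPSF4* was lost without GV 2 (FDR 0.024) or GV 4 (FDR 0.0107), and that on the 507-nt transcript of *CSTF3* without GV 1 (FDR 0.0164). The fall of the 3578-nt transcript of *CPSF7* (FDR 0.00548) rests on at most 16.6 estimated counts per library and mainly on GV 5, without which the difference was −6.98 points (FDR 0.049). It was called in 10 of the 19 analyses, and was also lost without GV 1, MII 1, MII 3, MII 5, ‘damaged’ 2 or ‘damaged’ 4 (FDR 0.0108 to 0.0131). The 8 libraries whose names agree lost that call too (FDR 0.0501). They also lost those on the 507-nt transcript of *CSTF3* (FDR 0.152) and the 4750-nt transcript of *CPSF3* (8 points, FDR 0.0123). Among the 10 members, the longest isoform fell in 6 and rose in 2, and over all 2554 genes with a called isoform it fell in 42.8% and rose in 31.5%. The isoforms are annotated models that differ in more than their ends, and reads that fit several of them were divided by the estimate of Kallisto.

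Against GV, the MII and the ‘damaged’ oocytes were also compared separately, with the same 4 GV libraries in both comparisons. In MII 14 members rose and 4 fell (28.2% and 34.2% of all genes), with a median of 0.47. In ‘damaged’ oocytes 15 rose and 4 fell (28.0% and 33.4% of all genes), with a median of 0.42. *PAIP2* had −3.70 in MII and −3.76 in ‘damaged’, *WDR33* 2.13 and 2.05, *NUDT21* 1.86 and 1.81, *CSTF2* 1.69 and 1.91, and *TENT2* 1.45 and 1.30. *CPEB1* was not called in either (−0.34 with FDR 0.112 and −0.22 with FDR 0.31).

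Whether MII and ‘damaged’ oocytes differ was tested directly. None of the 35 members and none of the 13215 genes passed FDR under 0.01 with limma-voom (0.00% of all genes), edgeR or DESeq2. At an unadjusted p under 0.05 there were 0 members with each of these tools, and 195 genes (1.48%), 263 genes and 252 genes. The log2 differences of the members lay between −0.68 and 0.22, with 19 above and 16 below 0, and all 35 intervals held 0. In 31 members the 95% interval lay within −1 to 1 and in 19 within −0.5 to 0.5, so that larger differences cannot be left out for the remainder. The member with the lowest unadjusted p was *PABPN1L*, lower in MII by 0.45 (difference −0.45, 95% interval −0.97 to 0.06, unadjusted 0.0823 and adjusted p = 1 with limma). *TENT5B* followed with −0.68 (−1.60 to 0.24, unadjusted 0.14) and *PAPOLG* with 0.22 (−0.09 to 0.53, unadjusted 0.149). For these 3 the MII and ‘damaged’ libraries overlapped. Of the isoforms of members, 0 changed between MII and ‘damaged’, against 0.00760% of all isoforms. Without the 7 libraries whose names disagree, 0 members passed and 2 had an unadjusted p under 0.05.

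**Figure D5:**
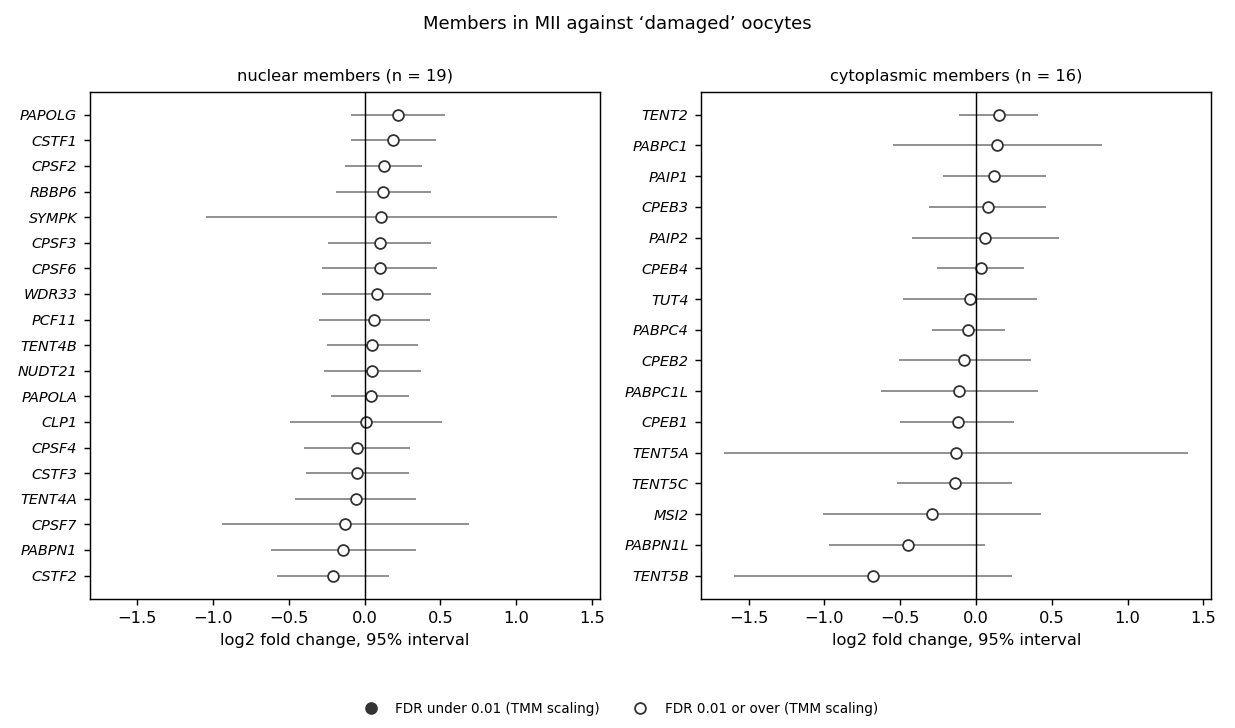
Log2 fold change of the 35 members tested between MII (5 libraries) and ‘damaged’ (5 libraries) oocytes, with 95% intervals and nuclear members on the left. Every interval crosses 0, and those of *TENT5A*, *SYMPK* and *TENT5B* are the widest.

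Related genes were taken from lists, each read against the same background of 30.4% higher and 37.2% lower. The lists, like the members, were chosen with earlier results of these data known, so an excess over that background is not independent evidence. Of 23 tested factors that shorten tails, the CCR4-NOT, PAN2-PAN3 and PARN deadenylases with their adaptors, 12 rose and 2 fell, with a median of 0.63 (−0.26 on library sizes). The adaptor *BTG4* rose by 2.88 (FDR 3.58e-12), the catalytic subunit *CNOT7* by 1.97 (FDR 7.52e-12) and *CNOT2* by 1.51 (FDR 4.08e-08), and on library sizes these were 1.98, 1.07 and 0.61. The 2 that fell bind RNA or deadenylases, namely *ZFP36L2* (−2.21, FDR 3.72e-09) and *TOB2* (−1.22, FDR 9.44e-05).

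Of 14 tested messages whose cytoplasmic polyadenylation is known from oocytes, 10 rose and 2 fell, with a median of 1.84 (0.95 on library sizes). This list shares *BTG4*, *CNOT7* and *CNOT6L* with the deadenylation list. *CCNB1*, the cyclin of maturation promoting factor, rose by 2.55 (FDR 2.79e-13) and *TPX2*, a spindle factor, by 2.26 (FDR 2.52e-13), whereas *GDF9* (−2.65, FDR 2.54e-13) and *SYCP3* (−0.92, FDR 0.000199) fell.

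Of 28 tested further 3′ end and tail factors, 13 rose and 5 fell, with a median of 0.52 (−0.37 on library sizes). *CASP8AP2*, which acts at histone message ends, rose by 2.46 (FDR 4.57e-14), *LARP4*, which binds poly(A), by 2.01 (FDR 3.7e-13) and *ZCCHC7* of the nuclear surveillance complex by 1.68 (FDR 2.32e-11). *INTS11*, the endonuclease of the Integrator complex and a relative of *CPSF3*, fell most (−5.17, FDR 4.56e-12), ahead of *TUT1* (−3.81, FDR 8.17e-09) and *WDR82* (−2.20, FDR 2.07e-12). On library sizes the 3 named that rose remained above 0 (1.57, 1.11 and 0.79).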

How the data were processed

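RNAseq of 15 pig oocyte libraries was used. SMART-Seq HT cDNA was sequenced by the authors as single-end Illumina reads. Per the labels and the study's methods, the authors made estimated counts and TPM per transcript with Kallisto 0.43 (version from the submitters' processing notes) on Sscrofa11.1, and the deposited gene table holds expected counts made by tximport from TPM and transcript length (lengthScaledTPM). These estimated counts are not normalized between libraries. The names of 7 gene table columns did not match the totals of the transcript files, so those columns were not used. Transcripts were assigned to genes by matching TPM sums to the other 8 columns (17802 genes, at least 99.9832% of counts per library), and gene counts of all libraries were computed by the same formula (largest deviation from the deposited counts 0.000312%).

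Groups follow the labels. Gene counts were filtered with filterByExpr of edgeR 4.0.16, scaled by TMM and tested with limma 3.58.1 (voom) in R 4.3.3, and isoforms with diffSplice. Alternatives were library sizes, edgeR, DESeq2 1.42.0, other filters, all 5 GV libraries, a replicate block, summed counts and leaving out each library. Totals of 6400412 to 23568633 estimated counts per library set the precision. Replicates are separate pools, and p-values measure the spread between these pools. The scripts were tested on simulated data first. Symbols came from a gene name table (11019 of the 13215 genes tested had one) and positions by symbol from RefSeq. Values in the text named FDR are limma adjusted p-values, over all genes tested for genes and over all isoforms tested (diffSplice) for isoforms. Values in every library are given for the 3 highest and 3 lowest members, each DEG, and *CPEB1*, *TENT2*, *PABPC1L*, *PABPN1L*, *PAPOLA* and *CPSF4*. The other lists are named by at most their 3 highest and 3 lowest calls. The members and lists were chosen with earlier results of these data known.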

Additional observations from a re-analysis of the deposited data

Results flagged for a closer look

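In 5 of 105 sets of libraries (35 members in each of 3 groups), 1 library stood apart from the rest of its group by Dixon's criterion, which chance alone gives in about 1 of 20 sets. In ‘damaged’ 1 *CPSF7* was at 3.70 TMM-scaled CPM (the others 1.19 to 1.88), and in ‘damaged’ 3 *PABPC1* was at 11.2 CPM (3.51 to 5.16). In GV 1 *CPSF2* was at 70.8 CPM (56.7 to 58.1). In MII 5 *PABPC4* was at 65.2 CPM (73.5 to 75.4) and *PABPN1L* at 26.5 CPM (13.1 to 16.4).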

How the results depend on the processing

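On library sizes 5 members rose and 17 fell between MIX and GV (MII 5 and 14, ‘damaged’ 5 and 16), and the medians were −0.53 for nuclear and −0.41 for cytoplasmic members. Of all 13215 genes tested, 1596 rose and 7999 fell on that scale (MII 1447 and 7608, ‘damaged’ 1476 and 7399). The direction turned for *CPSF4* (−0.81), *CSTF3* (−0.55), *PCF11* (−0.68), *RBBP6* (−0.03), *PAPOLA* (−0.08), *PAPOLG* (−0.53), *TENT4A* (−0.69), *TENT4B* (−0.11), *TENT5C* (−0.41), *PABPC1* (−0.60), *PABPC4* (−0.72), *CPEB3* (−0.25) and *PAIP1* (−0.42). Under a 10 CPM filter, which tests fewer genes, there was 1 DEG (*WDR33* lost that call), the cytoplasmic median was 0.16, and *CPSF4* (−0.24), *PCF11* (−0.11), *TENT4A* (−0.12) and *PABPC4* (−0.15) turned. With all 5 GV libraries *CPSF4* (−0.02) and *TENT4A* (−0.01) turned. With summed counts there was 1 DEG (again without *WDR33*), 2 members fell in MII and *CPSF6* was at 0.00. Among the 8 libraries whose names agree, a choice made after seeing the data, there were 5 DEGs, 2 members fell in ‘damaged’, the nuclear median was 0.54, and *CPSF4* (−0.09) and *TENT4A* (−0.06) turned. The cause was not tested for these changes. With each library left out in turn, *CPSF4* ranged from −0.05 to 0.18, *CPSF6* from −0.17 to 0.08 and *TENT4A* from −0.03 to 0.38, 14 to 17 members rose and 4 to 6 fell. Between 8392 and 9058 of all genes were called in either direction in these leave-one-out fits. With edgeR 15 rose and 5 fell, and with DESeq2 18 and 4. Of all 13215 genes tested, edgeR called 8813 and DESeq2 8991 in either direction, against 8928 in the main fit.

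Whether replicate numbers mark a shared collection is not given in the labels, and the libraries were not treated as paired: 5 of 13 same-number pairs correlated above 0.1 (median 0.08, against −0.01 for the other 52 pairs), and 7 of 14 libraries were closest to their own number. With a replicate block 17 members rose and 5 fell between MIX and GV, the isoform call on *CPSF7* was lost (FDR 0.0147), and 0 members differed between MII and ‘damaged’, with 2 at an unadjusted p under 0.05. Of all 13215 genes tested, 9046 were called between MIX and GV in either direction with that block.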
